A study of Mus musculus with 24 samples.

Results

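The 38 genes described here are 10 genes of the DNA methylation machinery and 28 genes of the germ line, chosen by symbol out of 55487 genes counted in each of 24 RNA-seq libraries. The first set holds the DNA methyltransferases Dnmt1, Dnmt3a and Dnmt3b with their cofactor Dnmt3l, the maintenance factors Uhrf1 and Uhrf2, the 5-methylcytosine oxidases Tet1, Tet2 and Tet3, and the repair glycosylase Tdg. The second set holds Dazl, Ddx4, Mael, Tex101, Sycp1, Sycp2, Sycp3, Syce1, Stag3, Smc1b, Rec8, Hormad1, Tdrd1, Tdrd5, Tdrd9, Tdrd12, Tdrkh, Asz1, Slc25a31, Taf7l, Stk31, Piwil2, Piwil4, Mov10l1, Brdt, Tex14, Tex15 and Rpl10l. All 38 had a row in every table, and some had 0 counts in some libraries. Rpl10l is a near copy of Rpl10, so its counts are uncertain.

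The cells were KH2 mouse embryonic stem cells, a line built to carry doxycycline-controlled transgenes, and all groups held TRE-DUX, a transgene for DUX. This factor moves such cells toward a state like that of the 2-cell embryo. Each of 6 lines was sequenced without doxycycline (DOX) and after 16 h of DOX, with 2 libraries per group: WT and DUXBL-KO, and, carrying the added label pLV2, 2 WT lines (line 1 and line 2 below), TRIM24-KO and TRIM33-KO. What pLV2 stands for is not in the labels, nor is how the knockout alleles were made, whether a knockout is 1 clone, or which WT pLV2 line belongs to which knockout. Cells were grown with serum and LIF on gelatin or on growth-arrested fibroblasts, and the labels do not say which libraries had which. Nothing says that the 2 libraries of a group came from separate cultures, so the p-values measure only the spread between these libraries, which may be technical.

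DNA methylation is set on unmethylated DNA by Dnmt3a and Dnmt3b, with Dnmt3l as a catalytically inactive helper, and is copied after replication by Dnmt1, which Uhrf1 brings to half-methylated sites. The Tet enzymes oxidise the methyl group, and Tdg can excise the oxidised bases. Many germline genes have CpG-rich promoters that are methylated in the soma, and in stem cells part of them is also held back by the E2F6, MGA and PRC1.6 repressor complex. Early embryos and 2-cell-like cells have low DNA methylation.

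Gene counts ran from 11784696 to 19136869 per library. Summed over 10 pluripotency genes the level was 3204 to 4218 CPM (edgeR's CPM scale, on TMM-scaled totals of gene counts), and none of the 10 was at 0 in any library. All 8 markers of the 2-cell-like state rose with DOX in each of the 6 lines. Zscan4c, one of them, was highest with DOX in TRIM33-KO (1744 and 1609 CPM) and line 2 (1269 and 893), against 500 and 298 (DUXBL-KO), 449 and 189 (WT), 344 and 413 (line 1), and 328 and 495 (TRIM24-KO). The part of this difference in the number of members called per line was not tested. Trim33 stood at 16.9 to 21.4 CPM in TRIM33-KO and at 85.2 or more in every other library. Trim24 stood at 120 to 137 CPM in the 4 libraries labelled TRIM24-KO, above line 1 (94.5 to 100) and below line 2 (165 to 199). Duxbl1 stood at 11.1 and 4.97 CPM with DOX in the libraries labelled DUXBL-KO, against 8.34 and 3.23 in WT, and at 0.862 and 0.321 without DOX, against 1.86 and 0.364, with overlap in both states. Fibroblast markers summed to 26.4 to 61.2 CPM. Of these 10 genes, Lum and Postn were at 0 in 23 of 24 libraries, Dcn in 19 and Col3a1 in 16.

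The members spanned a wide range of levels per transcript length. In WT without DOX, Tet1 stood highest at 110 ± 6.13 CPM per kb of exon (SD, n = 2), followed by Uhrf1 at 104 ± 1.48 and Dnmt3l at 94.4 ± 2.26. Dnmt1 (55.0 ± 1.70) and Dnmt3b (53.5 ± 2.35) came next, and their libraries overlapped. Tet2 stood at 35.4 ± 0.988, Tdg at 15.1 ± 0.303, Dnmt3a at 9.35 ± 0.303 and Uhrf2 at 6.79 ± 1.94 CPM per kb, and Tet3, the oxidase of the egg and zygote, was rank 28 of the 38 at 0.959 ± 0.162. Among germline genes Rpl10l (23.7 ± 5.25), Tdrd12 (17.7 ± 3.02) and Tex14 (13.4 ± 1.07) were highest. From Mael (4.27 ± 0.404) to Rec8 (3.60 ± 0.063) each gene overlapped its neighbour, as did each from Taf7l (0.551 ± 0.052) to Piwil4 (0.235 ± 0.067) CPM per kb. Over all 24 libraries the median level per kb ran from 0.823 (Tet3) to 97.6 (Uhrf1) among the 10 methylation genes and from 0.044 (Asz1) to 23.1 (Rpl10l) among the 28 germline genes. Tex101, a sperm surface protein gene, had 0 to 10 counts per library and was not tested.

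**Figure D1:**
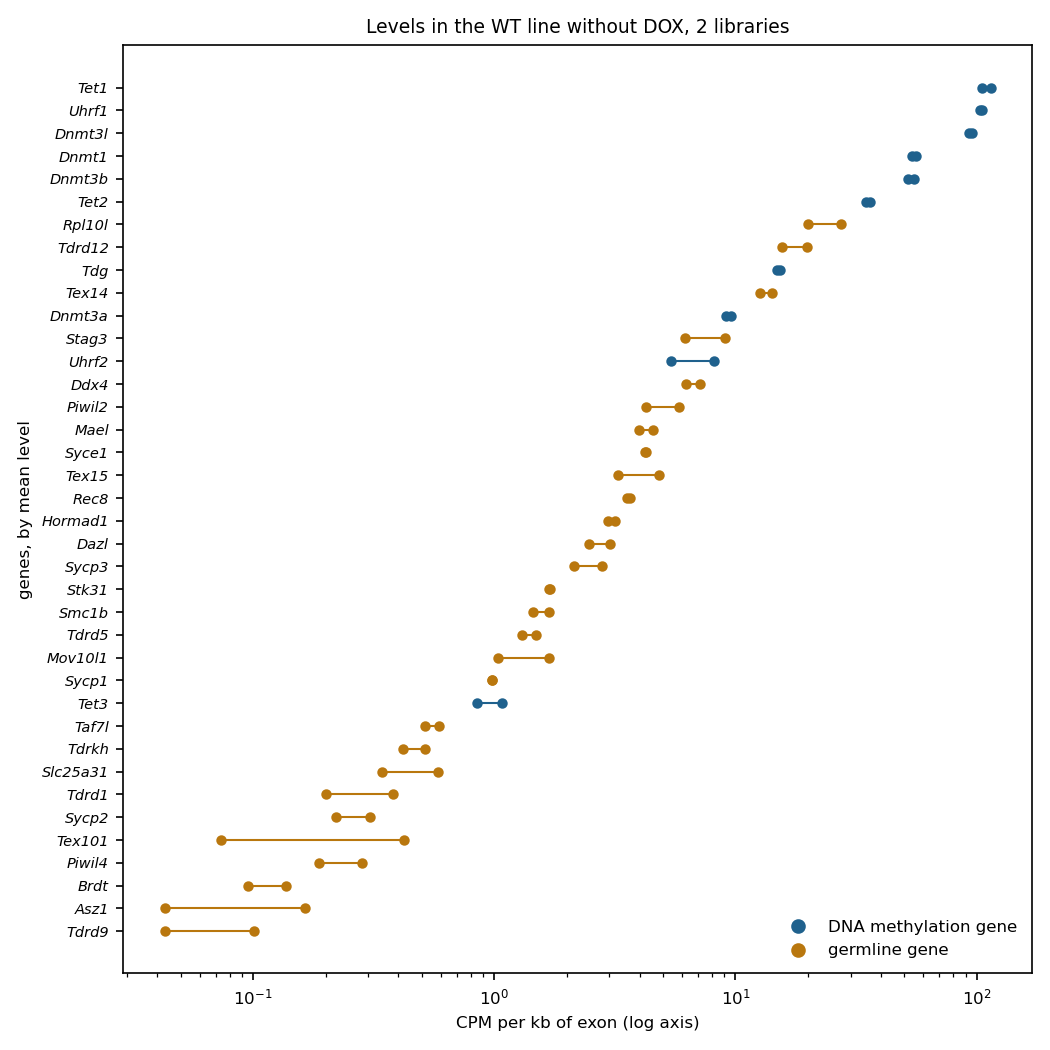
Level of each of the 38 genes in the 2 WT libraries without DOX, in CPM per kb of exon on a log axis, ordered by the mean. Points are libraries, lines join them, and blue marks DNA methylation genes, which hold the first 6 places from Tet1 to Tet2.

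With DOX the methylation genes that moved in the pLV2 lines fell, with 1 exception. In line 1, 5 of 10 fell and none rose, in line 2, 6 fell and none rose, in the libraries labelled TRIM24-KO only Tet2 fell, and in TRIM33-KO 7 fell and Uhrf1 rose (edgeR's quasi-likelihood test, Benjamini-Hochberg adjusted p under 0.05 over all genes). In WT and DUXBL-KO none of the 10 passed by this test. Uhrf1 alone had an unadjusted p under 0.05 in each, and DESeq2 called it in DUXBL-KO. The share of all tested genes called was 2.93% in WT, 4.91% in DUXBL-KO, 16.3% in line 1, 26.8% in line 2, 16.4% in TRIM24-KO and 36.6% in TRIM33-KO. The median log2 change over the 10 genes was -0.26 in line 1, -0.24 in line 2, -0.06 in TRIM24-KO and -0.23 in TRIM33-KO, and the median over all genes tested was -0.028, -0.072, -0.003 and -0.086 in the same order. Of the 10 pluripotency markers, 2 rose and 2 fell with DOX in line 1, 1 rose and 5 fell in line 2, 5 fell in the libraries labelled TRIM24-KO, and 1 rose and 5 fell in TRIM33-KO, with medians of -0.09, -0.26, -0.21 and -0.33. The fibroblast markers summed to 34.1 and 37.0 CPM without and 42.9 and 44.3 with DOX in line 1 (1 of 6 tested rose), 50.1 and 55.0 against 54.5 and 61.2 in line 2 (1 rose and 1 fell), 26.4 and 30.3 against 40.0 and 44.7 in TRIM24-KO (2 rose), and 37.0 and 44.6 against 44.2 and 48.8 in TRIM33-KO (2 rose and 1 fell), each pair from low to high. The part of either list in the changes of the members was not tested. RLE scaling raised all genes by 0.06 in line 2 and by 0.07 in TRIM33-KO, and with it Dnmt3b and Tdg lost their calls in both lines and Dnmt1 in TRIM33-KO. DESeq2 and the fit of the compared groups only lost the same calls. RNA from whole wells was measured, so fewer cells expressing a gene and less RNA per cell cannot be told apart.

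Tet2 was the only methylation gene that fell in all 4 pLV2 lines. It stood at 465 and 447 CPM without DOX and 383 and 337 with DOX in line 1, and at 394 and 326 against 222 and 216 in line 2. In the libraries labelled TRIM24-KO it stood at 413 and 466 without and 265 and 278 with DOX, and in TRIM33-KO at 338 and 391 against 178 and 210. Libraries with and without DOX did not overlap in any of these lines. The log2 change was -0.34 ± 0.10 (SE, adjusted p = 0.0307) in line 1, -0.72 ± 0.10 (5.68e-05) in line 2, -0.69 ± 0.10 (0.000103) in TRIM24-KO and -0.91 ± 0.10 (3e-06) in TRIM33-KO by edgeR. The line 1 call was lost without its replicate 1 or 2 without DOX or its replicate 2 with DOX (-0.33 to -0.25), and the other 3 held in every alternative. In WT Tet2 stood at 609 and 585 CPM without and 430 and 531 with DOX, and in DUXBL-KO at 557 and 657 against 469 and 538. These too did not overlap, with log2 differences of -0.31 ± 0.13 (edgeR adjusted p = 0.464) and -0.27 ± 0.13 (0.444) that did not pass.

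Tet3 fell in 3 of the 4 pLV2 lines from a low level. Its CPM was 13.3 and 13.7 without and 10.8 and 7.94 with DOX in line 1, 13.8 and 14.9 against 9.01 and 9.40 in line 2, and 16.8 and 15.3 against 7.82 and 8.89 in TRIM33-KO. The log2 changes were -0.53 ± 0.17, -0.64 ± 0.17 and -0.95 ± 0.17 (edgeR adjusted p = 0.0432, 0.00906 and 0.000397). Its call in line 1 was lost without replicate 1 or 2 without DOX or replicate 2 with DOX (-0.51 to -0.32), by DESeq2, and without CT010467.1, and in line 2 without replicate 2 without DOX or replicate 1 with DOX (-0.61 to -0.54). The libraries labelled TRIM24-KO began from a higher level, 42.8 and 36.4 CPM, and stood at 36.4 and 26.3 with DOX (-0.32 ± 0.14, edgeR adjusted p = 0.147). In WT the values were 17.9 and 14.1 against 11.6 and 11.98, and in DUXBL-KO 13.5 and 20.4 against 10.2 and 16.1, where the groups overlapped.

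Tet1, the most abundant Tet gene in stem cells, fell in line 2 (1034 and 1061 CPM without, 804 and 910 with DOX, log2 change -0.29 ± 0.07) and in TRIM33-KO (978 and 937 against 745 and 748, -0.36 ± 0.07). In line 1 it stood at 1364 and 1361 without and 1475 and 1397 CPM with DOX, in TRIM24-KO at 1314 and 1418 against 1236 and 1349, in WT at 1634 and 1768 against 1392 and 1671, and in DUXBL-KO at 1382 and 1511 against 1244 and 1294. The line 2 call of Tet1 was lost when only the compared groups were fitted, and without its replicate 2 without DOX or its replicate 1 with DOX (-0.23 to -0.20). Tdg, which removes oxidised methylcytosine, fell by 0.28, 0.20 and 0.20 on the log2 scale in line 1, line 2 and TRIM33-KO. Its CPM was 54.3 and 49.9 without and 44.1 and 41.8 with DOX in line 1, 68.3 and 69.7 against 58.0 and 61.8 in line 2, and 65.8 and 66.3 against 57.3 and 57.2 in TRIM33-KO. In TRIM24-KO it stood at 55.5 and 53.6 against 52.1 and 48.9, and it was within 71.3 to 84.2 CPM in all 8 WT and DUXBL-KO libraries. The Tdg calls in line 1 and line 2 were also lost with no filter on low counts, and that in line 2 without CT010467.1. Each Tdg call was lost without 1 library: without replicate 1 without DOX or replicate 2 with DOX in line 1 (-0.24 to -0.18), without any library but replicate 2 with DOX in line 2 (-0.19 to -0.15), and without any of the 4 in TRIM33-KO (-0.19 to -0.14).

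Among the methyltransferases, the cofactor Dnmt3l fell in 3 lines. It stood at 326 and 323 CPM without and 250 and 267 with DOX in line 1 (log2 change -0.33 ± 0.09), at 131 and 139 against 102 and 103 in line 2 (-0.40 ± 0.09), and at 138 and 130 against 96.8 and 105 in TRIM33-KO (-0.42 ± 0.09). In TRIM24-KO the values were 446 and 402 against 454 and 371, with overlap. The Dnmt3l calls were lost in line 1 without either library without DOX or replicate 1 with DOX (-0.30 to -0.28), in line 2 without replicate 2 without DOX (-0.32), and in TRIM33-KO without replicate 1 with DOX (-0.29). Exons of Dnmt3l overlap Aire on the other strand, which had 385 to 1369 counts per library without DOX and 66 to 623 with DOX. The strand setting of the counting is not given in the sources used here, so part of the Dnmt3l value may be Aire.

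Dnmt3b, the main embryonic de novo enzyme, fell in line 2 (128 and 148 CPM without, 106 and 123 with DOX, -0.27 ± 0.08) and TRIM33-KO (176 and 173 against 147 and 146, -0.25 ± 0.08). These calls were lost without replicate 2 without DOX or replicate 1 with DOX in line 2 (-0.17 to -0.12) and without any of the 4 libraries in TRIM33-KO (-0.25 to -0.19). In line 1 it stood at 217 and 210 against 181 and 182 CPM, called lower only when the compared groups alone were fitted (-0.20, edgeR adjusted p = 0.00511). It stood in TRIM24-KO at 349 and 342 against 383 and 353, in WT at 265 and 282 against 284 and 309, and in DUXBL-KO at 328 and 324 against 374 and 360. Dnmt3a, its close relative, fell in line 1 alone among the calls, from 104 and 102 to 80.8 and 75.7 CPM (-0.40 ± 0.09). That call was lost without replicate 1 without DOX or replicate 2 with DOX (-0.35 to -0.34). In line 2 Dnmt3a stood at 128 and 108 without and 126 and 113 with DOX, in TRIM24-KO at 43.5 and 49.7 against 41.9 and 44.9, in TRIM33-KO at 130 and 122 against 138 and 128, and in WT at 159 and 152 against 171 and 156. Dnmt1, the maintenance enzyme, fell in TRIM33-KO from 340 and 364 to 306 and 315 CPM (-0.18 ± 0.06), a call lost without replicate 2 without DOX or either library with DOX (-0.14 to -0.10). In the other lines its CPM without and with DOX was 397 and 415 against 416 and 450 (WT), 400 and 422 against 435 and 474 (DUXBL-KO), 419 and 422 against 390 and 402 (line 1), 333 and 347 against 311 and 309 (line 2), and 417 and 418 against 423 and 421 (TRIM24-KO).

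Uhrf1 went the other way, by the main edgeR test in TRIM33-KO alone. In all 6 lines each library with DOX was above each without: 439 and 448 against 588 and 554 CPM in WT, 530 and 460 against 665 and 643 in DUXBL-KO, 406 and 408 against 452 and 451 in line 1, 337 and 383 against 391 and 401 in line 2, 372 and 357 against 425 and 400 in TRIM24-KO, and 346 and 310 against 423 and 374 in TRIM33-KO. It rose by the test in TRIM33-KO (0.28 ± 0.08, edgeR adjusted p = 0.0102), a call lost without replicate 2 without DOX or replicate 1 with DOX (0.22 to 0.25). Its log2 difference was 0.36 ± 0.09 in WT (adjusted p = 0.110) and 0.40 ± 0.09 in DUXBL-KO (0.0543) by edgeR, and 0.40 in DUXBL-KO by DESeq2 (adjusted p = 0.0246). With no filter on low counts edgeR called it in WT (0.39, adjusted p = 0.0214) and DUXBL-KO (0.40, adjusted p = 0.00999). In line 1 Uhrf1 was called when only the compared groups were fitted (0.18, edgeR adjusted p = 0.00714). No run called it in line 2 or TRIM24-KO. How many of all genes were likewise without overlap in every line was not counted. Uhrf2 was called in no line with DOX by the main edgeR test. It was called higher in line 1 without CT010467.1 (0.24, adjusted p = 0.0461), in TRIM33-KO with RLE scaling (0.23, adjusted p = 0.0306), and in both lines when only the compared groups were fitted by edgeR. Its levels were 46.6 and 70.1 CPM without and 61.4 and 78.0 with DOX in WT, 56.2 and 58.0 against 72.3 and 70.2 in DUXBL-KO, and 33.04 to 63.9 against 35.1 to 71.4 across the pLV2 lines.

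**Figure D2:**
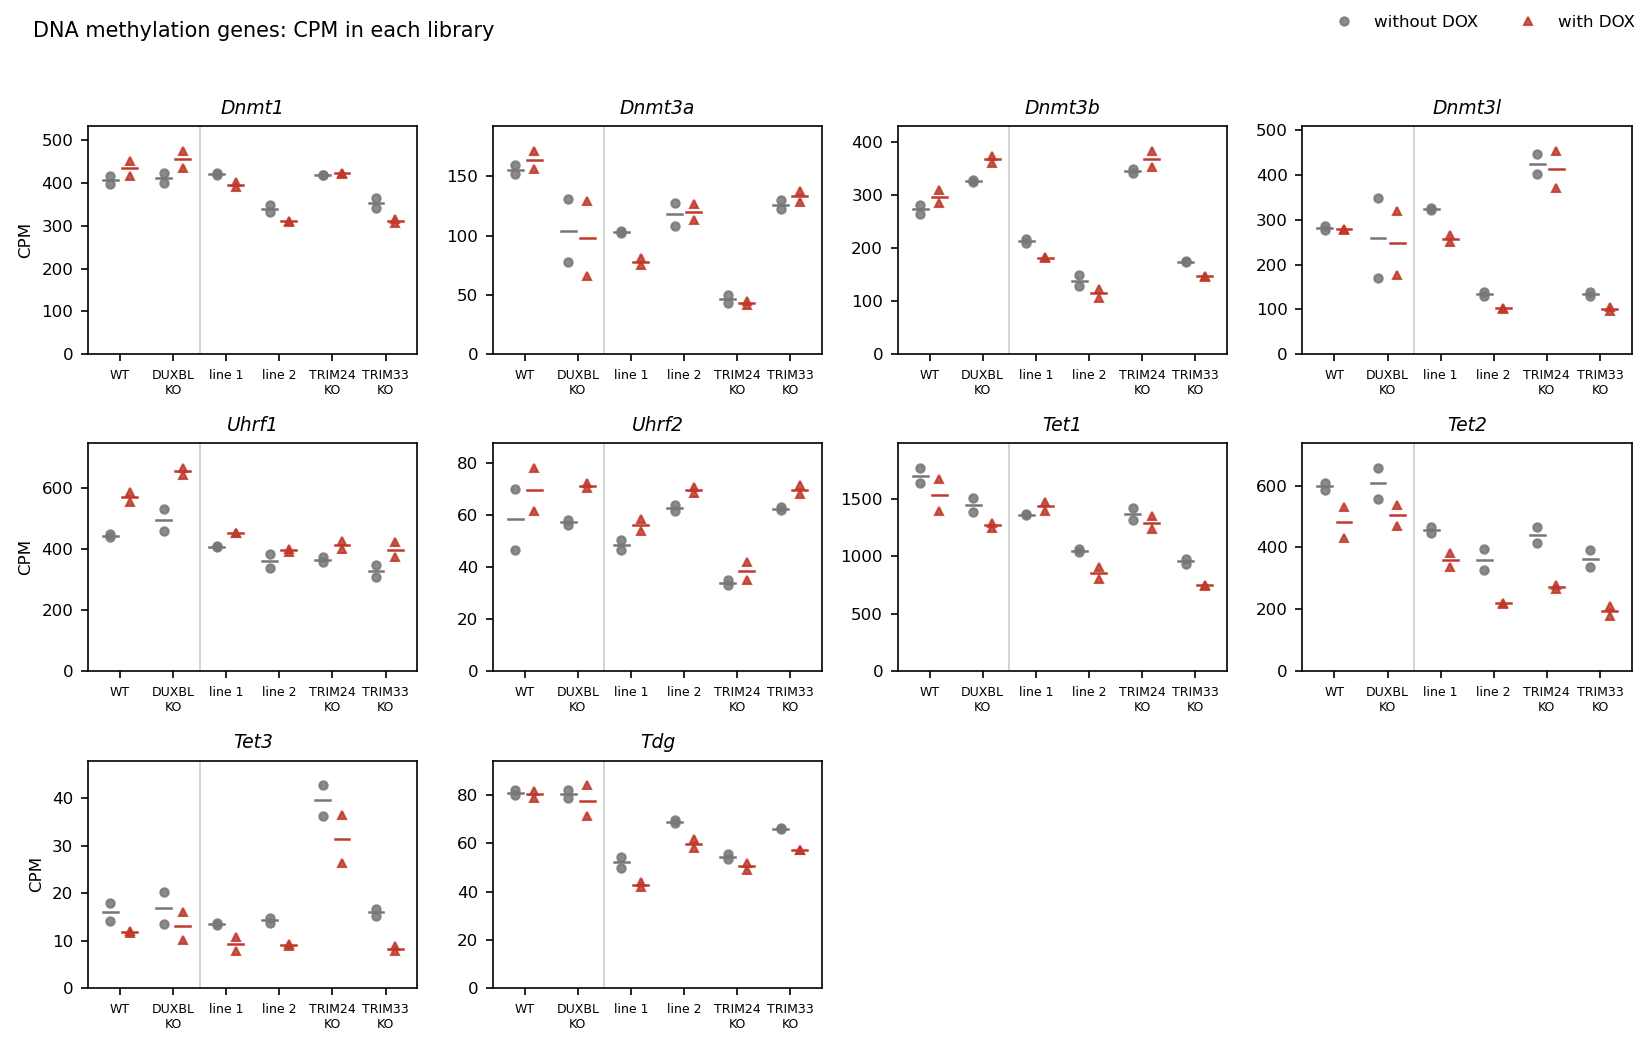
CPM of the 10 DNA methylation genes in each library, without DOX (grey circles) and with DOX (red triangles), with bars at the mean of 2 libraries; the grey line parts WT and DUXBL-KO from the pLV2 lines. Tet2 lies lower with DOX in every line, and Dnmt3l lies at 139 CPM or less in all libraries of line 2 and TRIM33-KO.

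Among the germline genes, edgeR called 3 of 27 tested in line 1, where all 3 rose, against 16.3% of all genes. In line 2, 5 rose and Tdrd12 fell (26.8% of all genes), in the libraries labelled TRIM24-KO 3 rose and none fell (16.4%), and in TRIM33-KO 6 rose and 3 fell (36.6%). Tex101 was not tested, and edgeR's main test called 16 others in none of the 6 lines. One of these, the meiotic cohesin Stag3, stood at 44.0 and 42.5 CPM without and 53.6 and 57.0 with DOX in TRIM33-KO (0.35 ± 0.14, edgeR adjusted p = 0.0574). It was called there by DESeq2 (0.42, adjusted p = 0.0137), and by edgeR with RLE scaling, with no filter, without CT010467.1 and with only the compared groups fitted. In WT and DUXBL-KO none of 26 tested was called by the main edgeR test, 4 in each had an unadjusted p under 0.05, and DESeq2 called none. Over all 37 members tested, 8, 12, 4 and 17 were called in line 1, line 2, TRIM24-KO and TRIM33-KO. Leaving out 1 library moved these counts to 1 to 5, 3 to 12, 2 to 8 and 8 to 12, with the lowest without line 1 replicate 1 without DOX, line 2 replicate 2 without DOX, TRIM24-KO replicate 2 with DOX and TRIM33-KO replicate 1 with DOX. The count also moved over 1.5 times without each other line 1 library (3, 5 and 3), without line 2 replicate 1 with DOX (5), without TRIM24-KO replicate 1 with DOX (8), and without TRIM33-KO replicate 2 without or with DOX (11 each). Median log2 differences of the tested germline genes were 0.20 in WT, 0.17 in DUXBL-KO, 0.20 in line 1, -0.03 in line 2, 0.14 in TRIM24-KO and -0.10 in TRIM33-KO. With Asz1 and Piwil4 at their bounds or left out, the TRIM24-KO median was 0.08.

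**Figure D3:**
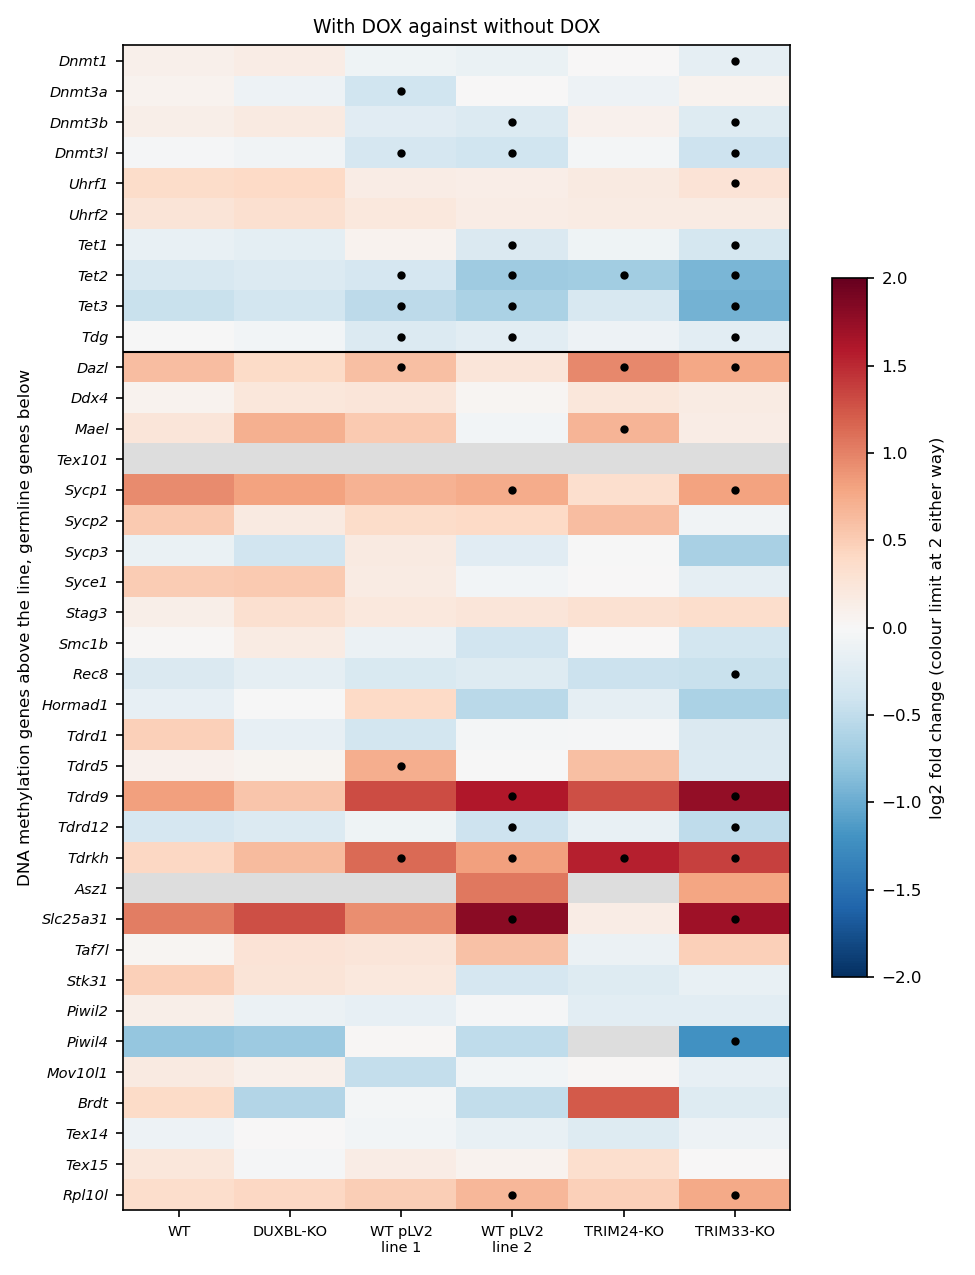
Log2 fold change with DOX for each gene (rows) in each line (columns), red for higher and blue for lower with DOX, with a black dot where the edgeR adjusted p was under 0.05. Grey cells were not tested or had 3 counts or fewer in each library of a group, and Tdrkh and Tet2 have dots in all 4 pLV2 columns.

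Tdrkh, whose Tudor-domain protein tethers piRNA machinery to mitochondria, was the only one of the 28 germline members that rose in all 4 pLV2 lines by edgeR, and each call held in every alternative run. It stood at 3.02 and 3.09 CPM without and 7.002 and 6.43 with DOX in line 1, and at 7.32 and 7.17 against 14.2 and 11.5 in line 2. In the libraries labelled TRIM24-KO it was at 0.781 and 1.39 against 3.06 and 3.43, and in TRIM33-KO at 5.57 and 4.56 against 13.4 and 12.7. The log2 change was 1.13 ± 0.20, 0.82 ± 0.16, 1.55 ± 0.28 and 1.37 ± 0.17 in that order (edgeR adjusted p = 0.000658, 0.0012, 0.000625 and 8.82e-06). With DOX the level in line 1 was near that of line 2 without it, and the highest TRIM24-KO library was near line 1 without DOX. WT (2.56 and 3.16 against 4.32 and 3.34 CPM) and DUXBL-KO (2.32 and 2.94 against 3.42 and 4.70) did not overlap either, with differences of 0.41 ± 0.28 and 0.63 ± 0.28 that did not pass (edgeR adjusted p = 0.730 and 0.380). Oaz3, which overlaps Tdrkh exons on the other strand, had at most 3 counts in any library.

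Dazl, an RNA-binding protein needed for germ cell entry into gametogenesis, rose in line 1 (11.8 and 12.5 CPM without, 18.2 and 18.8 with DOX, 0.60 ± 0.20), in TRIM24-KO (2.82 and 4.64 against 5.13 and 10.2, 0.97 ± 0.26) and in TRIM33-KO (6.76 and 7.30 against 13.0 and 10.8, 0.77 ± 0.22). Each call was lost without 1 library: in line 1 without any of the 4 (0.58 to 0.69), in TRIM24-KO without replicate 1 without DOX or replicate 2 with DOX (0.43 to 0.66) or with only the compared groups fitted, and in TRIM33-KO without replicate 1 of either group (0.69 to 0.73). In line 2 it stood at 11.3 and 11.4 against 12.6 and 14.3 CPM, in WT at 9.39 and 11.5 against 17.8 and 14.4, and in DUXBL-KO at 9.96 and 5.83 against 11.1 and 9.51, where the groups overlapped.

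A further set rose in line 2 and TRIM33-KO by the main edgeR test. Tdrd9, a helicase of piRNA-directed silencing, rose from 0.630 and 0.429 to 1.53 and 1.79 CPM in line 2 (1.61 ± 0.40) and from 0.795 and 0.816 to 3.38 and 2.06 in TRIM33-KO (1.76 ± 0.35), on 7 to 38 counts per library, and both calls held in every alternative. Slc25a31, the testis form of the mitochondrial ADP/ATP carrier, rose from 0.388 and 0.306 to 0.764 and 1.72 CPM (1.80 ± 0.47) and from 0.398 and 0.432 to 1.33 and 1.41 (1.70 ± 0.46), on 5 to 23 counts. Sycp1, the transverse filament of the synaptonemal complex, rose from 3.63 and 3.003 to 5.50 and 5.67 CPM (0.74 ± 0.24) and from 3.68 and 4.95 to 6.58 and 8.56 (0.80 ± 0.23). Rpl10l, a testis copy of a ribosomal protein gene, rose from 20.2 and 14.3 to 28.5 and 26.7 (0.67 ± 0.17) and from 16.6 and 16.7 to 27.2 and 29.4 CPM (0.76 ± 0.17). In line 2 the Slc25a31 call was lost when only the compared groups were fitted and without replicate 2 of either group (1.10 to 1.70), the Rpl10l call without replicate 2 without DOX or replicate 1 with DOX (0.48 to 0.62), and the Sycp1 call without any library but replicate 1 without DOX (0.65 to 0.76). In TRIM33-KO the Sycp1 call was lost without replicate 1 without DOX or replicate 2 with DOX (0.62 to 0.67).

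In line 1 and in the libraries labelled TRIM24-KO the main test called none of these 4 genes. Tdrd9 stood at 0.206 and 0.450 CPM without and 0.761 and 0.908 with DOX in line 1, and at 0.240 and 0.406 against 0.745 and 0.890 in TRIM24-KO, with no overlap in either. Rpl10l stood at 18.3 and 18.1 against 24.1 and 27.3 in line 1 (0.50 ± 0.17, edgeR adjusted p = 0.0581) and at 11.2 and 17.4 against 18.6 and 21.6 in TRIM24-KO. It was called in line 1 by DESeq2 (0.51, adjusted p = 0.0397) and by edgeR with no filter, without CT010467.1 and with only the compared groups fitted, and in TRIM24-KO with no filter (0.44, edgeR adjusted p = 0.0239) and without replicate 2 without DOX. Sycp1 stood at 2.81 and 3.60 against 6.39 and 4.09 CPM in line 1 (0.70 ± 0.25, edgeR adjusted p = 0.0656), called with no filter (0.73, edgeR adjusted p = 0.033) and without replicate 2 with DOX, and at 4.63 and 3.77 against 5.13 and 5.46 in TRIM24-KO. Slc25a31 stood at 0.755 and 0.515 against 1.07 and 1.36 CPM in line 1, and at 0.360 and 0.638 against 0.497 and 0.635 in TRIM24-KO, where the groups overlapped.

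In WT, Sycp1 stood at 3.49 and 3.46 CPM without and 7.08 and 6.29 with DOX (0.94 ± 0.23, edgeR adjusted p = 0.109), and in DUXBL-KO at 2.91 and 2.24 against 5.06 and 3.93 (0.80 ± 0.24, 0.153). Slc25a31 was at 1.24 and 0.729 against 2.46 and 1.53 in WT (1.03 ± 0.40, adjusted p = 0.387 by edgeR) and at 0.431 and 0.321 against 0.920 and 0.929 in DUXBL-KO (1.28 ± 0.46, 0.256). The Sycp1 sizes were near those called in the pLV2 lines, and the Slc25a31 sizes were smaller than those called there. None of these differences passed in the main test. The edgeR dispersions were fitted apart in the plain and pLV2 sets.

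Of the rest, Mael, a piRNA pathway factor, rose in TRIM24-KO from 6.43 and 6.96 to 8.78 and 13.2 CPM (0.69 ± 0.18), a call lost without either library without DOX or replicate 2 with DOX (0.36 to 0.71) and with only the compared groups fitted, and in line 1 it stood at 7.75 and 6.82 against 9.97 and 10.9 (0.52 ± 0.17, edgeR adjusted p = 0.0515). The Mael difference in line 1 was called by edgeR with RLE scaling, with no filter, without CT010467.1, with the replicate block and with only the compared groups fitted (adjusted p = 0.018 in the last). Tdrd5, another piRNA factor, rose in line 1 from 4.32 and 3.41 to 5.78 and 7.04 (0.73 ± 0.24), lost without any of its 4 libraries (0.58 to 0.95) and with the replicate block. Tdrd12, a Tudor protein of piRNA production, fell in line 2 from 29.3 and 35.7 to 21.7 and 26.8 CPM (-0.41 ± 0.11) and in TRIM33-KO from 32.5 and 32.2 to 21.3 and 24.5 (-0.50 ± 0.12). Those calls were lost in line 2 with only the compared groups fitted, and without line 2 replicate 2 without DOX or replicate 1 with DOX (-0.27 to -0.23) and without TRIM33-KO replicate 1 with DOX (-0.34). In TRIM33-KO the meiotic cohesin Rec8 fell from 14.4 and 14.8 to 10.8 and 10.6 CPM (-0.45 ± 0.13), lost without replicate 2 without DOX or either library with DOX (-0.41 to -0.38) and by DESeq2 (adjusted p up to 0.119 over all alternatives). In TRIM24-KO Rec8 stood at 9.37 and 11.4 without and 7.21 and 8.39 CPM with DOX (-0.43 ± 0.14, edgeR adjusted p = 0.053), and edgeR called it lower with RLE scaling (-0.45, adjusted p = 0.0406), without CT010467.1 (-0.46, adjusted p = 0.036) and without replicate 1 without DOX. Piwil4, a PIWI protein gene, fell in TRIM33-KO from 1.59 and 1.82 to 0.622 and 0.867 CPM (-1.21 ± 0.46, edgeR adjusted p = 0.0475), lost without any of the 4 libraries (-1.38 to -0.91), by DESeq2, with RLE scaling, with the replicate block, with only the compared groups fitted, and without CT010467.1. Piwil4 was not called in TRIM24-KO by the main edgeR test. It had 3 and 0 counts there with DOX. Its mean CPM without DOX was 1.95 times a floor of 3 counts per library.

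The stretches before the start sites of 5 of the 6 germline genes that rose in at least 2 lines are shown, since they differ in motifs of known repressors. Rpl10l is left out as a near copy. Promoters (250 bases before to 50 after the start, RefSeq, GRCm38.p6) were found for 36 of the 38 genes, and not for Piwil2 and Tex15. Each line gives the bases before the annotated gene, 5′ to 3′ on the gene's strand, with matches to the E-box CACGTG in capitals. These stretches lie at chr3:94413094-94413243 (Tdrkh, plus strand), chr17:50293637-50293770 (Dazl, minus), chr12:111971409-111971558 (Tdrd9, plus), chr3:40708721-40708854 (Slc25a31, plus) and chr3:102936101-102936250 (Sycp1, minus).
Tdrkh: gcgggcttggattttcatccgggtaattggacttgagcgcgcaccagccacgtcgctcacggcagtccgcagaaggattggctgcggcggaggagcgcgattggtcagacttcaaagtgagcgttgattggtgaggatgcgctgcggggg
Dazl: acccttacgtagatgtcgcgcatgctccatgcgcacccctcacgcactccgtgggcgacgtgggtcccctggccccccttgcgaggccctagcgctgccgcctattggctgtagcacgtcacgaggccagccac
Tdrd9: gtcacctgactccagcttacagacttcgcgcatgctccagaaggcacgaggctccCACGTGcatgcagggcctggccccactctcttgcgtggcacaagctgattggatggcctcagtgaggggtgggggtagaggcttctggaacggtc
Slc25a31: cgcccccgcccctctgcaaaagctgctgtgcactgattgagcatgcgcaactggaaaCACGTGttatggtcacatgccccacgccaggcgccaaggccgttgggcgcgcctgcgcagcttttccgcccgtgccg
Sycp1: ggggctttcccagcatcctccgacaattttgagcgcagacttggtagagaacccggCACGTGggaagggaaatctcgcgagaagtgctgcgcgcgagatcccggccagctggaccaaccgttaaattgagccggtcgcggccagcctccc

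The E-box, which MGA and MAX bind, was in the stretches of Tdrd9, Slc25a31 and Sycp1, and neither Tdrkh nor Dazl had it anywhere in the 300-base window. The E2F6 site GCGGGA, searched on both strands, was in the 300-base windows of Slc25a31 and Sycp1 outside the stretches shown. Over the germline genes, the E-box was in 16 of 32 promoters, against 7.15% of all 32851 promoters. By gene it was in 13 of 26, against 2187 of all 27025 genes. The E2F6 site was in 13 of 32 promoters (40.62%), against 19.98% of all. By gene it was in 12 of 26, against 5959 of all 27025 genes. Ddx4, Hormad1, Mael, Slc25a31, Stag3, Sycp1 and Sycp3 had both. Of the 10 methylation genes, 5 had the E2F6 site and 3 the E-box. The core GATTNAATC of the DUX motif was in no promoter of a member and in 0.27% of all promoters. Median CpG count per promoter was 20 for germline and 22 for methylation genes, against 7 for all. The shares of all promoters are not matched on CpG, and the part of CpG content in the motif shares was not tested.

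**Figure D4:**
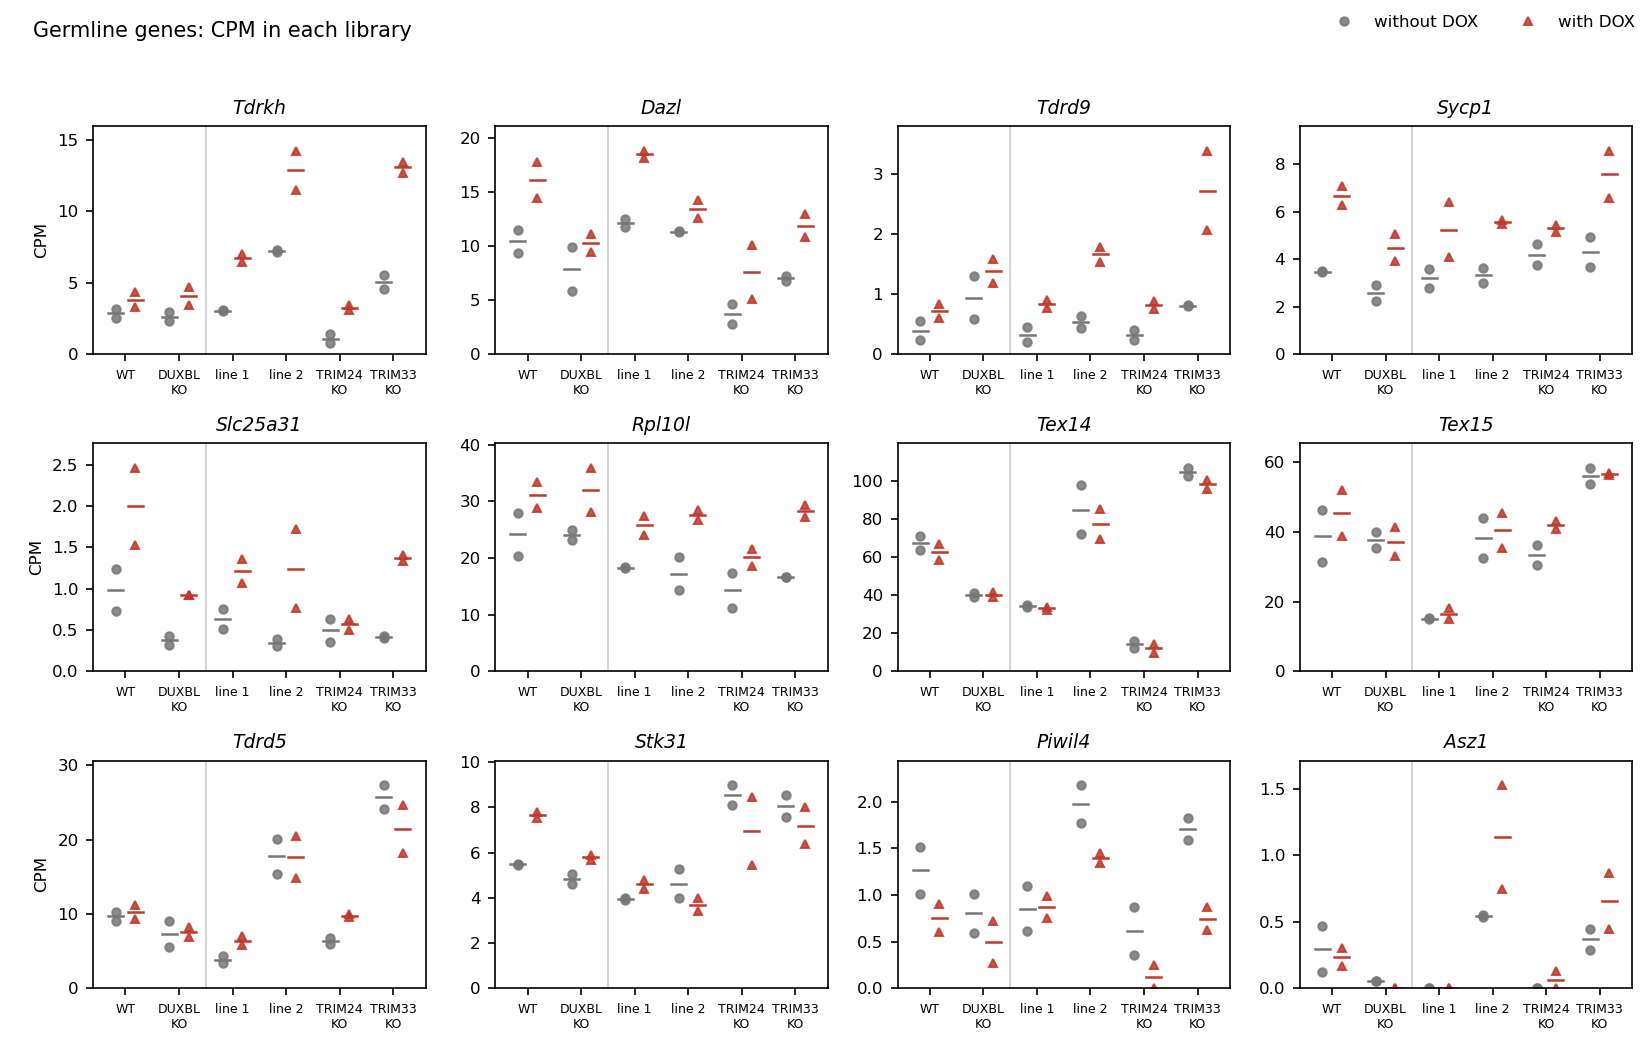
CPM of 12 germline genes in each library, without DOX (grey circles) and with DOX (red triangles), with bars at the mean of 2 libraries; the grey line parts WT and DUXBL-KO from the pLV2 lines. Tdrkh lies higher with DOX in every line, and Tex14, Tex15 and Tdrd5 differ more between lines than with DOX.

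No member's DOX response was called different between lines by the main interaction test. None of 36 members was called for DUXBL-KO minus WT, and none of 37 for TRIM24-KO or TRIM33-KO minus the mean of both WT pLV2 lines or for line 2 minus line 1, by edgeR or by DESeq2. The shares of all genes called were 0%, 0.437%, 0.575% and 0.238%, and 0, 3, 4 and 6 members had an unadjusted p under 0.05. Tet2 had a response lower by 0.38 ± 0.13 on the log2 scale in TRIM33-KO than in the WT pLV2 lines (edgeR adjusted p = 0.276). Its response was lower by 0.37 ± 0.15 in line 2 than in line 1 (adjusted p = 0.539 by edgeR). So a call in one line and none in another does not show that the lines differed. Without a filter on low counts Tet1 and Tet2 were called in both of these interactions and Tdrd5 in the first.

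Without DOX, the 2 WT pLV2 lines differed in more members than any DOX comparison called. Line 2 was higher than line 1 in 13 of 37 members and lower in 9, against 38.3% of all genes called. Dnmt3l was lower in line 2, 131 and 139 against 326 and 323 CPM (log2 difference -1.27 ± 0.09, edgeR adjusted p = 1.75e-08), as were Dnmt3b (128 and 148 against 217 and 210, -0.63 ± 0.08), Tet1 (-0.38 ± 0.07), Dnmt1 (-0.31 ± 0.06) and Tet2 (-0.34 ± 0.10). The Tet2 call was lost without either line 1 library or line 2 replicate 2 (-0.34 to -0.19). Tdg (0.41 ± 0.07) and Uhrf2 (0.37 ± 0.08) were higher in line 2. Summed over the 10 methylation genes, line 2 stood at 2630 and 2659 CPM and line 1 at 3419 and 3384. Of the 10 pluripotency markers, 2 were higher and 6 lower in line 2, 3 higher and 5 lower in the libraries labelled TRIM24-KO than in the mean of the WT lines, and 2 higher and 3 lower in TRIM33-KO. Their part in the differences between lines was not tested.

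Of the germline genes, 11 were higher and 4 lower in line 2. Tdrd5 stood at 20.1 and 15.4 CPM in line 2 and 4.32 and 3.41 in line 1 (2.21 ± 0.21), Tex15, a factor of piRNA-directed methylation, at 44.0 and 32.4 against 14.9 and 15.2 (1.35 ± 0.15), and Tex14, a component of germ cell bridges, at 97.6 and 72.3 against 34.9 and 33.8 (1.31 ± 0.14). Tdrkh (1.24 ± 0.19), the synaptonemal complex gene Syce1 (12.8 and 8.70 against 4.67 and 5.66 CPM, 1.06 ± 0.20) and Rec8 (0.65 ± 0.13) were higher too. The meiotic cohesin Smc1b (11.7 and 10.3 against 22.9 and 20.7, -0.98 ± 0.19), Mael (-0.93 ± 0.19) and Tdrd12 (29.3 and 35.7 against 45.1 and 51.5, -0.58 ± 0.11) were lower in line 2. Asz1, which had low counts, kept its call in every alternative run. The remaining calls were lost without 1 library: Piwil4 (2.18 and 1.78 against 0.617 and 1.09 CPM) without replicate 1 of either line (0.89 to 1.07) and by DESeq2, Ddx4 (17.9 and 16.6 against 13.7 and 12.2) without line 1 replicate 2 or line 2 replicate 1 (0.37 to 0.39), Piwil2 without either line 1 library or line 2 replicate 1 (0.16 to 0.50), and Tdrd1 (log2 difference 0.91 ± 0.34) and the helicase Mov10l1 (4.85 and 4.72 against 7.34 and 6.69 CPM, -0.59 to -0.45) without any of the 4 and by DESeq2, with the Mov10l1 call also lost with no filter.

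Asz1, a germ cell gene of the piRNA pathway on mitochondria, was the member closest to an on or off pattern between lines. It had 0 counts in all 4 libraries of line 1 and 0, 0, 0 and 1 in those labelled TRIM24-KO, but 11, 9, 20 and 10 in line 2 and 9, 6, 5 and 8 in TRIM33-KO. Against a floor of 3 counts per library it was at least 2.72-fold higher without DOX in line 2 than in line 1. WT had 6, 2, 5 and 3 counts and DUXBL-KO 1, 1, 0 and 0. All of these are low counts, and a gene at 0 is not detectable at this depth rather than absent.

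The fibroblast markers summed to 50.1 and 55.0 CPM in line 2 and 34.1 and 37.0 in line 1 without DOX, and 3 of 6 tested were higher and 1 lower. In the libraries labelled TRIM24-KO the sum was 26.4 and 30.3, with 4 of 6 lower than in the mean of the WT lines, and in TRIM33-KO 44.6 and 37.0, with 3 higher and 1 lower. Their part in the differences between lines was not tested.

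The libraries labelled TRIM24-KO differed from each WT pLV2 line in the same direction in 15 members, and in opposite directions in Tdrd5. Against the mean of both lines, 9 of 37 were higher and 11 lower (43.4% of all genes called). Against line 1 alone 17 were called (34.0% of all genes) and against line 2 alone 26 (48.1%), and the 15 are among both. How many of all genes were called against both lines in the same direction was not counted, so the 15 have no background. Dnmt3a was low, at 43.5 and 49.7 CPM against 104 and 102 in line 1 and 128 and 108 in line 2 (log2 difference -1.24 ± 0.08 against the mean, edgeR adjusted p = 2.61e-09). Dnmt3b was high, at 349 and 342 against 217 and 210 and 128 and 148 (1.01 ± 0.06), and so was Dnmt3l, at 446 and 402 against 326 and 323 and 131 and 139 (1.02 ± 0.07). The Dnmt3l difference was 0.38 ± 0.08 against line 1 and 1.65 ± 0.09 against line 2. Tet3 was 42.8 and 36.4 CPM against 13.3 to 14.9 in both lines (1.51 ± 0.12). Uhrf2 was lower, at 33.04 and 35.04 against 50.2 and 46.5 and 63.9 and 61.4 (-0.69 ± 0.07). TRIM33-KO was compared with the same WT libraries, so the differences share these controls.

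Among germline genes, Tdrkh (0.781 and 1.39 CPM, -2.10 ± 0.22), Tex14 (12.3 and 16.0, -1.93 ± 0.14), Dazl (2.82 and 4.64, -1.65 ± 0.21) and Smc1b (3.60 and 6.67, -1.59 ± 0.19) were lower in the libraries labelled TRIM24-KO than in the mean of the WT lines, and each was lower against each line alone. Dazl was at 11.3 to 12.5 CPM in all 4 WT pLV2 libraries. Hormad1, a meiotic chromosome axis gene (6.19 and 5.98 CPM against 2.196 to 3.59, 1.14 ± 0.18), Tdrd12 (82.4 and 77.6 against 29.3 to 51.5, 1.02 ± 0.09) and Stk31, a Tudor-domain kinase of germ cells (8.11 and 8.99 against 3.93 to 5.28, 0.99 ± 0.16), were higher against both. Mov10l1 was lower, at 3.12 and 3.19 against 4.72 to 7.34 (-0.87 ± 0.18). The bromodomain gene Brdt (0.300 and 0.522 CPM, -1.65 ± 0.43) and the meiotic cohesin subunit Stag3 (-0.47 ± 0.12) were lower against both, with calls against the mean lost without TRIM24-KO replicate 1 (-1.32 and -0.44).

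For the following members the choice of WT line set the direction or only the call. Tdrd5, at 6.01 and 6.79 CPM in the libraries labelled TRIM24-KO, was higher than line 1 (0.73 ± 0.23) and lower than line 2 (-1.48 ± 0.19). Tex15, at 36.3 and 30.5 CPM, was higher than line 1 (1.15 ± 0.15) and not called against line 2 (-0.20), and its call against the mean was lost without TRIM24-KO replicate 1 (0.34). Dnmt1 and Tet1, called against the mean at 0.14 ± 0.05 and 0.19 ± 0.06, were called against line 2 and not line 1. They also lost the call against the mean without TRIM24-KO replicate 1 (0.15) and replicate 2 (0.19). Ddx4 (9.67 and 11.1 CPM, -0.52 ± 0.12) was called against line 2 and not line 1, and so was Piwil4 (0.360 and 0.870, -1.07 ± 0.40), whose call against the mean was lost without line 1 replicate 2, line 2 replicate 1 or TRIM24-KO replicate 1 (-0.95 to -0.59), by DESeq2, and with only the compared groups fitted. Syce1, at 5.35 and 6.67 CPM, was called lower against line 2 alone.

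TRIM33-KO without DOX was close to line 2. Of 37 members, 4 were called against line 2 alone (1.52% of all genes called) and 22 against line 1 alone (40.9%). Against the mean of both lines 11 were called, 5 higher and 6 lower (23.9%), and without TRIM33-KO replicate 2 the count was 6. Stk31 (8.55 and 7.59 CPM) was higher than line 1 (1.03 ± 0.20) and line 2 (0.79 ± 0.19), and Tex15 (53.9 and 58.4 CPM) was higher than line 1 (1.90 ± 0.15) and line 2 (0.55 ± 0.13). These were the only members called against each line in the same direction, a count without a background over all genes. Dnmt3b, at 176 and 173 CPM between the lines, was lower than line 1 (-0.29 ± 0.08) and higher than line 2 (0.34 ± 0.08), and Mael (6.86 and 6.87 CPM) was higher than line 2 alone (0.85 ± 0.18).

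The other calls against the mean were not made against line 2. Tdrd5 stood at 24.1 and 27.4 CPM (1.63 ± 0.15 against the mean, 0.53 ± 0.16 and not called against line 2) and Tex14 at 103 and 107 (0.95 ± 0.11, and 0.30 ± 0.13 and not called against line 2). Dnmt3l, at 138 and 130 CPM, was at -0.64 ± 0.08 against the mean and -0.01 ± 0.09 against line 2. Dazl was low, at 6.76 and 7.30 CPM (-0.74 ± 0.18), with its call lost without either TRIM33-KO library (-0.78 to -0.67) and against line 2 alone (-0.69 ± 0.21, edgeR adjusted p = 0.134). Tet1 (-0.32 ± 0.06), Uhrf1 (-0.22 ± 0.07), Syce1 (10.4 and 12.6 CPM, 0.62 ± 0.16), Tdrd12 (32.5 and 32.2 CPM, -0.29 ± 0.09) and Mov10l1 (4.47 and 3.84 CPM, -0.48 ± 0.16) were not called against line 2. The Syce1 call was also lost without TRIM33-KO replicate 2 (0.50), Uhrf1 without either line 1 library, line 2 replicate 2 or TRIM33-KO replicate 2 (-0.20 to -0.13), Tdrd12 without line 1 replicate 2, line 2 replicate 2 or either TRIM33-KO library (-0.28 to -0.20), and Mov10l1 without any of the 6 (-0.57 to -0.35), by DESeq2, with no filter, and without CT010467.1. Summed over the 10 methylation genes, TRIM33-KO stood at 2592 and 2571 CPM, below both line 2 libraries, and the libraries labelled TRIM24-KO at 3486 and 3577, above both of line 1.

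**Figure D5:**
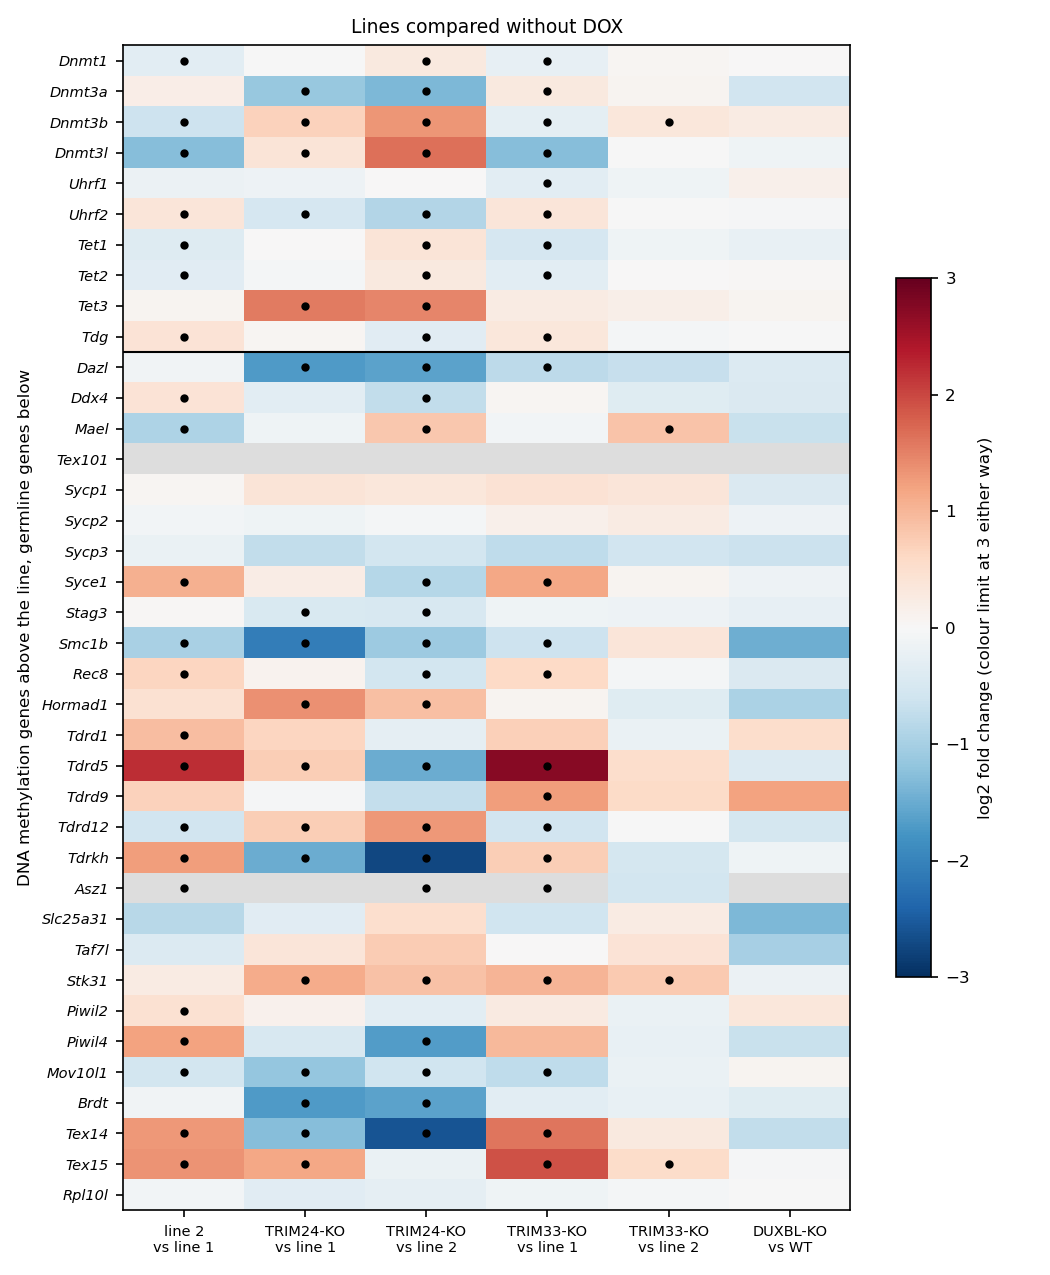
Log2 fold change of each gene (rows) between lines without DOX (columns), red for higher and blue for lower in the line named first, with a black dot where the edgeR adjusted p was under 0.05. Grey cells were not tested or had 3 counts or fewer in each library of a group; TRIM33-KO has 22 dots against line 1 and 4 against line 2.

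Between DUXBL-KO and WT without DOX no member was called by the main edgeR test, where 0.0388% of all genes were, and 7 of 36 had an unadjusted p under 0.05. DESeq2 called Tex14, which stood at 41.3 and 39.0 CPM in the libraries labelled DUXBL-KO and 63.6 and 71.1 in WT (log2 difference -0.75 ± 0.11, edgeR adjusted p = 0.107). Smc1b (2.85 and 1.71 against 6.83 and 5.83 CPM) and Hormad1 (2.26 and 3.26 against 5.12 and 5.47) did not overlap between the lines and did not pass in the main test. With no filter on low counts edgeR called Dnmt3a (-0.56, adjusted p = 0.00375), Smc1b (-1.45, adjusted p = 0.00148) and Tex14 (-0.73, adjusted p = 0.000527) lower. The median over 26 germline genes was -0.41.

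Replicates 1 and 2 of DUXBL-KO differed in the same direction in both DOX states in several members, of which 3 with high counts were chosen after their values were seen. Dnmt3l was at 349 CPM in replicate 1 and 171 in replicate 2 without DOX, and at 319 and 178 with DOX. Dnmt3a was at 130 and 78.0 without and 130 and 65.8 with DOX, and Tdrd12 at 78.3 and 28.9 without and 64.0 and 25.3 with DOX. The WT libraries of the same genes differed less, with Dnmt3l at 277 to 287 CPM. These differences between libraries of 1 group are larger than any DOX difference of the same genes in DUXBL-KO.

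Partners of these genes were read from lists drawn up with the members. From each list at most the 2 higher and 2 lower genes with the smallest p in a comparison are named. A line not given for a named gene can therefore still hold a call of it. Of 28 tested partners of the methylation machinery (29 in WT and DUXBL-KO), DOX raised 3 and lowered 4 in line 1. In line 2 it raised 3 and lowered 9, in TRIM33-KO it raised 4 and lowered 8, in the libraries labelled TRIM24-KO it raised 5 and lowered 3, against 16.3%, 26.8%, 36.6% and 16.4% of all genes called, and edgeR called none in WT or DUXBL-KO (7 and 9 at an unadjusted p under 0.05). The methyl-CpG glycosylase gene Mbd4 rose in all 4 pLV2 lines (0.73 ± 0.11, 0.61 ± 0.10, 0.45 ± 0.11 and 0.81 ± 0.10 in line 1, line 2, TRIM24-KO and TRIM33-KO), and so did the corepressor gene Trim28 (0.24, 0.32, 0.40 and 0.50, each with an SE of 0.06). The CXXC zinc finger gene Cxxc5 fell in line 2 (-0.47 ± 0.09), TRIM24-KO (-0.40 ± 0.09) and TRIM33-KO (-0.92 ± 0.10), the methyl-CpG reader gene Zbtb38 fell in line 1, TRIM24-KO and TRIM33-KO (-0.45 ± 0.11, -0.54 ± 0.11 and -0.98 ± 0.12), and Cdca7 fell in line 1 and line 2 (-0.32 ± 0.06 and -0.39 ± 0.06).

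Of 19 repressors of germline genes, 1 rose and 4 fell in line 1. In line 2, 2 rose and 5 fell, in TRIM33-KO 3 rose and 10 fell, in the libraries labelled TRIM24-KO 2 rose and Mga fell, against the same shares of all genes, and edgeR called none in WT or DUXBL-KO (1 and 3 at an unadjusted p under 0.05). Mga, the scaffold of the PRC1.6 complex, fell in all 4 (-0.33 ± 0.06, -0.60 ± 0.06, -0.34 ± 0.06 and -0.79 ± 0.06), and its partner Max fell in line 2 (-0.41 ± 0.07) and TRIM33-KO (-0.59 ± 0.07). The histone methyltransferase gene Setdb1 rose in line 1, line 2 and TRIM24-KO (0.23 ± 0.07, 0.25 ± 0.07 and 0.25 ± 0.08). Without DOX, 5 of the 19 were higher and 7 lower in line 2 than in line 1 (38.3% of all genes called), and 4 were higher and 5 lower in the libraries labelled TRIM24-KO than in the mean of the WT pLV2 lines (43.4%). TRIM33-KO had 6 higher and 1 lower than that mean (23.9%). The PRC1.6 gene L3mbtl2 was lower (-0.57 ± 0.06) and E2f6 higher (0.99 ± 0.11) in line 2 than in line 1. Rybp (1.26 ± 0.06) and the H3K9 methyltransferase gene Ehmt2 (1.33 ± 0.07) were higher in the libraries labelled TRIM24-KO. Kdm1a (-0.33 ± 0.06) and Mga (-0.20 ± 0.06) were lower there. Ehmt2 also differed between the WT lines, with line 2 lower than line 1 (-0.54 ± 0.09).

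Of the 30 or 31 tested genes on a further germline list, 1 rose in WT and 1 in DUXBL-KO, in both lines Gm4969 (1.64 ± 0.28 and 1.31 ± 0.26). In line 1, 3 rose and none fell. Line 2 and TRIM33-KO each had 3 that rose and 6 that fell, and in the libraries labelled TRIM24-KO 2 rose and Hormad2 fell. The share of all genes called was 2.93% in WT, 4.91% in DUXBL-KO, 16.3% in line 1, 26.8% in line 2, 36.6% in TRIM33-KO and 16.4% in TRIM24-KO. Taf4b, a germ cell TFIID subunit gene, rose in all 4 pLV2 lines (0.59 ± 0.08, 0.36 ± 0.08, 0.59 ± 0.08 and 0.59 ± 0.08), and Tex19.1, a methylation-sensitive germline gene, rose in line 2, TRIM24-KO and TRIM33-KO (0.86 ± 0.18, 0.85 ± 0.19 and 1.07 ± 0.18). The meiotic genes Syce2 and Meioc fell in line 2 (-0.42 ± 0.11 and -0.49 ± 0.13) and TRIM33-KO (-0.59 ± 0.11 and -0.66 ± 0.14). Without DOX, 6 of 31 were higher and 13 lower in the libraries labelled TRIM24-KO than in the mean of the WT pLV2 lines, against 43.4% of all genes called. TRIM33-KO had 10 higher and 1 lower than that mean (23.9% of all genes). Line 2 had 13 higher and 2 lower than line 1 (38.3%). Meioc (-1.92 ± 0.14) and the germ cell transcription factor gene Sohlh2 (-2.44 ± 0.17) were among those lower in the libraries labelled TRIM24-KO. Stra8 (1.46 ± 0.24) and Hsf2bp (0.42 ± 0.07) were among those higher there. Meioc also differed between the WT lines, with line 2 higher than line 1 (1.06 ± 0.14).

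Of the other members, Sycp2, Sycp3 and Taf7l were called in no DOX or line comparison by the main edgeR test, and Tex101 was not tested. With only the compared groups fitted by edgeR, Sycp3 was called lower in the libraries labelled TRIM24-KO (-0.62, adjusted p = 0.0388) and in TRIM33-KO (-0.67, adjusted p = 0.0298) than in the WT pLV2 lines. Exons of Sycp3 overlap Chpt1 on the other strand, which had 57 to 204 counts per library against 9 to 63 for Sycp3, so part of the Sycp3 value may be Chpt1. Sycp2 and Sycp3, axis proteins of meiotic chromosomes, ranged over 1.16 to 2.68 and 0.976 to 4.19 CPM in the 24 libraries, and Taf7l, a germ cell TFIID subunit, over 0.481 to 1.56.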

How the data were processed

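The authors' deposited tables hold raw counts of reads per gene and per repeat subfamily, 1 table per library, per the file headers. Bases were called with bcl2fastq 2.20.0, adapters trimmed with cutadapt 1.18 and reads aligned with STAR 2.7.6a, on mm10, per the submitters' processing notes. Libraries were rRNA-depleted, strand-specific and read as paired 75 bp, per the labels' protocols. The counting tool, its strand setting and the treatment of reads matching several places are not given in the sources used here.

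Gene IDs were matched to GENCODE M21. Groups follow the titles, with 2 libraries each. In 8 pLV2 libraries the treatment tag disagrees with the title, and Dux counts followed the titles. The 8 WT and DUXBL-KO libraries and the 16 pLV2 libraries were fitted apart with edgeR 4.0.16 in R 4.3.3 (TMM on gene counts, filterByExpr by group, 1 mean per group, glmQLFit and glmQLFTest, 2-sided). P-values were adjusted over the 18060 or 18079 genes tested in each of 14 comparisons, with a threshold of 0.05. Without DOX, TRIM24-KO and TRIM33-KO were set against both WT pLV2 lines averaged, and each line alone was an alternative. An interaction is 1 line's DOX effect minus that of its reference. Errors of fold changes are edgeR standard errors. The test was checked on simulated counts. The alternatives were RLE scaling, DESeq2 1.42.0, no filter, a filter at a mean of 10 counts, library sizes that include repeats, leaving out CT010467.1 (30.4% of gene counts in TRIM24-KO replicate 2 with DOX, 12.9% in TRIM33-KO replicate 2 with DOX, and at most 1.30% elsewhere), a replicate block, the compared groups only, and each library left out.

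Values in single libraries are given mainly for the 10 methylation genes and for germline genes called in at least 3 DOX or 2 line comparisons. For some groups they are given as a range or left out. Of list genes, the 2 higher and 2 lower with the smallest p in a comparison could be named. Members, lists and the rule were chosen with earlier results of these data known. In no group did the 2 libraries agree within sampling noise. Floors cover counting error only.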

Additional observations from a re-analysis of the deposited data

How the results depend on the processing

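Of 94 calls of a member in a comparison, 44 held in every alternative run and 50 lost the threshold in at least 1, mostly when 1 of the 2 libraries of a group was left out. A fold change called neither in the main fit nor in an alternative makes no claim of direction. With the compared groups only in the fit, the number of members called was 14 for DOX in line 1, 7 in line 2 and 2 in TRIM24-KO. Without a filter on low counts it was 1 for DOX in WT, 1 in DUXBL-KO, 3 for DUXBL-KO against WT, 3 for the TRIM33-KO response against WT pLV2 and 2 for the response of line 2 minus line 1. DESeq2 called 1 for DOX in DUXBL-KO and 1 for DUXBL-KO against WT. Leaving out 1 library gave 1 to 5 for DOX in line 1, 3 to 12 in line 2, 2 to 8 in TRIM24-KO, 8 to 12 in TRIM33-KO and 6 to 12 for TRIM33-KO against WT pLV2. Against line 1 alone TRIM33-KO had 22 calls and a response called in 1 member, Tet1, and against line 2 alone it had 4 calls.

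Set beside the difference from the mean of both WT lines, a sign change with at least 1 of the values called came with the choice of WT line: for TRIM24-KO, Dnmt1 was at -0.0102 and Tdrd5 at 0.73 against line 1 and Tex15 at -0.20 against line 2, and for TRIM33-KO, Dnmt3b was at -0.29 against line 1. Other members differed in sign between the lines taken alone, such as Mael, Tdg, Rec8 and Syce1 in TRIM24-KO, called against line 2 and not line 1. Scaling shifted the median of all genes by at most 0.07. With RLE, higher genes made up 59.6% of all DOX calls in line 2 (47.6% in the main fit) and 56.7% in TRIM33-KO (45.0%), and 64.4% of the TRIM24-KO response calls (81.0%). With DESeq2 they made up 63.5% and 60.6% of the DOX calls in line 2 and TRIM33-KO.

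Replicate numbers are only shared, since nothing in the labels says they pair libraries. The correlation of deviations between same-numbered libraries with and without DOX was 0.484 in WT, 0.685 in DUXBL-KO and 0.026 to 0.287 in the pLV2 lines, and 0.341 between DUXBL-KO and WT without DOX. With the replicate block, 2 members were called for DOX in WT and 2 in DUXBL-KO (Uhrf1 and Sycp1 in both), and 1 for DUXBL-KO against WT (Tex14). Over all genes the block raised the calls from 529 to 961 (WT), 886 to 1594 (DUXBL-KO) and 7 to 440 (DUXBL-KO against WT), and DESeq2 called 176 in the last. Low counts, at most 38 per library for Tdrd9 and 20 for Asz1, limit the precision of these genes.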
